A study of Mus musculus with 14 samples.

Results

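Complement is measured here in liver RNA through 32 genes of the complement system. They were chosen by name: every gene of the read count table whose symbol is on a list of 32 complement symbols, out of 25212 genes in the table. All 32 were found, and all 32 had enough counts to enter the test, which ran over 14252 genes.

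Bulk RNA was sequenced from 14 livers of male C57BL/6 mice, 1 library from each liver. All mice ate a high-fat diet with 60% of its calories from fat from 6 weeks of age, for 12 weeks before any operation, and stayed on it. The livers were taken at the 8-week time point. The diet-induced obese (DIO) group of 5 mice had no operation. In the 4 GB-IL mice the gallbladder was joined to the ileum 4 cm before the ileo-caecal valve and the common bile duct was tied off, so that bile entered the end of the small intestine. The 5 RYGB mice had a Roux-en-Y gastric bypass. The unoperated DIO livers are the controls and no sham-operated liver is among these libraries, so an effect of surgery as such and an effect of the rerouted bile or food cannot be told apart. Total counts ran from 18440676 to 21473005 in DIO, from 19231679 to 26131278 in GB-IL and from 18223135 to 28656631 in RYGB libraries. Levels below are CPM, the count rate of a gene relative to the library total scaled by the trimmed mean of M values (TMM), and intervals of counting error were not added because the spread between livers is the error used.

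Complement is a set of plasma proteins and cell surface receptors that tag and lyse microbes and clear dying cells. Recognition proteins bind a surface and switch on attached proteases, the proteases build convertases that split C3 and C5, and the split products recruit cells, coat the target or start a pore of terminal components, while regulators protect the body's own cells. Hepatocytes are the main source of the plasma components, whereas the C1q chains, properdin and the receptors for the small fragments C3a and C5a are known from macrophages and other myeloid cells.

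By role, the recognition genes are C1qa, C1qb and C1qc (the 3 chains of C1q), Mbl1 and Mbl2 (mannose-binding lectins), Fcna (ficolin A), Colec10 and Colec11 (collectins). The initiating proteases are C1ra, Masp1 and Masp2. The convertase group holds C2, C3, C4b, Cfb (factor B), Cfd (factor D) and Cfp (properdin, which stabilises the convertase). The terminal group holds Hc (C5), C6, C8a, C8b, C8g and C9. The anaphylatoxin receptors are C3ar1 and C5ar1. The regulators are Cfi (factor I), Serping1 (C1 inhibitor), C4bp, Cd55, Cd59a, Cr1l and Clu (clusterin).

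The liver label fits the hepatocyte markers. The summed level of 9 hepatocyte markers lay between 109859 and 162035 CPM in the 14 livers, with Alb the most abundant, and no marker gene of any of the 13 cell type lists was at 0 in all livers. Some libraries stand apart. GB-IL liver 1 held 1346 CPM of 6 pancreatic acinar markers, most of it Ctrb1, against 6.16 to 38.2 CPM in the other 13 livers. GB-IL liver 4 held 49 counts of Adipoq, 35 of Lep and 23 of Plin1, defining genes of adipocytes, where each other liver had at most 4 counts of any of them. Of the same list of 9, Fabp4 was lower there than in the other GB-IL livers and Cidea lay inside the DIO range, and without Pck1 and Car3 the adipocyte sum of this liver was 41.4 CPM, inside the DIO range of 23.6 to 51.4 CPM and the lowest of the GB-IL livers. Neutrophil markers summed to 123, 56.8, 444 and 6.46 CPM in GB-IL livers 1 to 4 and to 134 CPM in RYGB liver 5, against at most 13.1 CPM in every other liver. In bulk tissue, fewer cells of a type and less RNA per cell cannot be told apart.

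Bile diversion to the ileum was compared with no operation to ask what it does to the liver of a mouse that stays on the diet. Of the complement genes, 4 of 32 were higher in GB-IL than in DIO livers at a false discovery rate of 0.05 (edgeR quasi-likelihood test, Benjamini-Hochberg adjusted over all 14252 genes). They were C1qb, C1qc, C3ar1 and C5ar1, all known from myeloid cells. The share was 12.5% of the members, beside 3.15% of all genes called higher. No member was called lower by this test, beside 0.112% of all genes. At an unadjusted p under 0.05, 10 members were higher (16.7% of all genes) and 6 were lower (6.43% of all genes), and 7 members passed the adjusted threshold with DESeq2, 4 with voom and 6 with edgeR's exact test, the DESeq2 calls all higher. Over all genes these tools called 1164 higher and 184 lower, 510 and 79, and 1032 and 97. In 1 member, C3ar1, every GB-IL liver lay above every DIO liver (2.67% of all genes), and in 0 members every GB-IL liver lay below (1.51% of all genes).

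The 4 calls depend on which livers are in the fit. Without any 1 of the 5 DIO livers, or without GB-IL liver 1 or 2, 0 members and 0 of all genes passed the adjusted threshold, although 9 to 16 members had an unadjusted p under 0.05, beside 14.8% to 20.8% of all genes. With only the 2 groups in the fit, 0 members and 0 of all genes passed, and 11 members had an unadjusted p under 0.05, beside 17.1% of all genes. Without GB-IL liver 3, 2 members passed (C3ar1 and C5ar1; 540 genes higher and 36 lower in all), and without RYGB liver 3, which enters through the shared variance, 1 passed (C3ar1; 288 and 6 in all). Without GB-IL liver 4, 14 members passed, 9 higher and 5 lower, beside 2228 genes higher and 1344 lower over the whole table. With GB-IL livers 1 and 4 both left out, a setting chosen after seeing the data, 12 passed, 10 higher and 2 lower, beside 1271 and 508 genes. GB-IL liver 4 lay inside the DIO range for 15 of 22 acute phase genes and below it for 7, where GB-IL livers 1, 2 and 3 lay above it for 21, 19 and 21. In GB-IL liver 4 C3ar1, at 8.12 CPM, was above every DIO and every RYGB liver. Macrophage markers summed to 1097 CPM there, against at most 846 CPM in DIO and 1201 CPM in RYGB livers. Whether the group label of GB-IL liver 4 holds was not tested.

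The median log2 fold change of the 32 members, GB-IL against DIO, was 0.06, beside 0.04 over all genes. Without GB-IL liver 3 the members' median was -0.34. It was 0.32 with voom and 0.41 without GB-IL livers 1 and 4 together. By role the median differed. It was -0.01 over the 8 recognition genes, -0.42 over the 3 proteases and 0.53 over the 6 convertase genes. Over the 6 terminal genes it was -0.52, over the 2 receptors 1.60 and over the 7 regulators 0.08. With 1 liver left out it ran from -0.35 to 0.21 for recognition genes, -0.75 to -0.15 for proteases and 0.44 to 0.97 for convertase genes. The lowest and highest were -1.44 and -0.17 for terminal genes, with GB-IL livers 3 and 1 left out in turn, 1.44 to 1.80 for receptors and -0.27 to 0.28 for regulators. Across the 7 members known from myeloid cells (C1qa, C1qb, C1qc, Cfp, C3ar1, C5ar1 and Fcna) it was 1.31, and all 7 fitted values were above 0, that of Fcna by 0.077 only. The value of Fcna alone was -0.0041, -0.0069, -0.16 or -0.068 without DIO liver 1 or 2 or GB-IL liver 2 or 3.

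**Figure D1:**
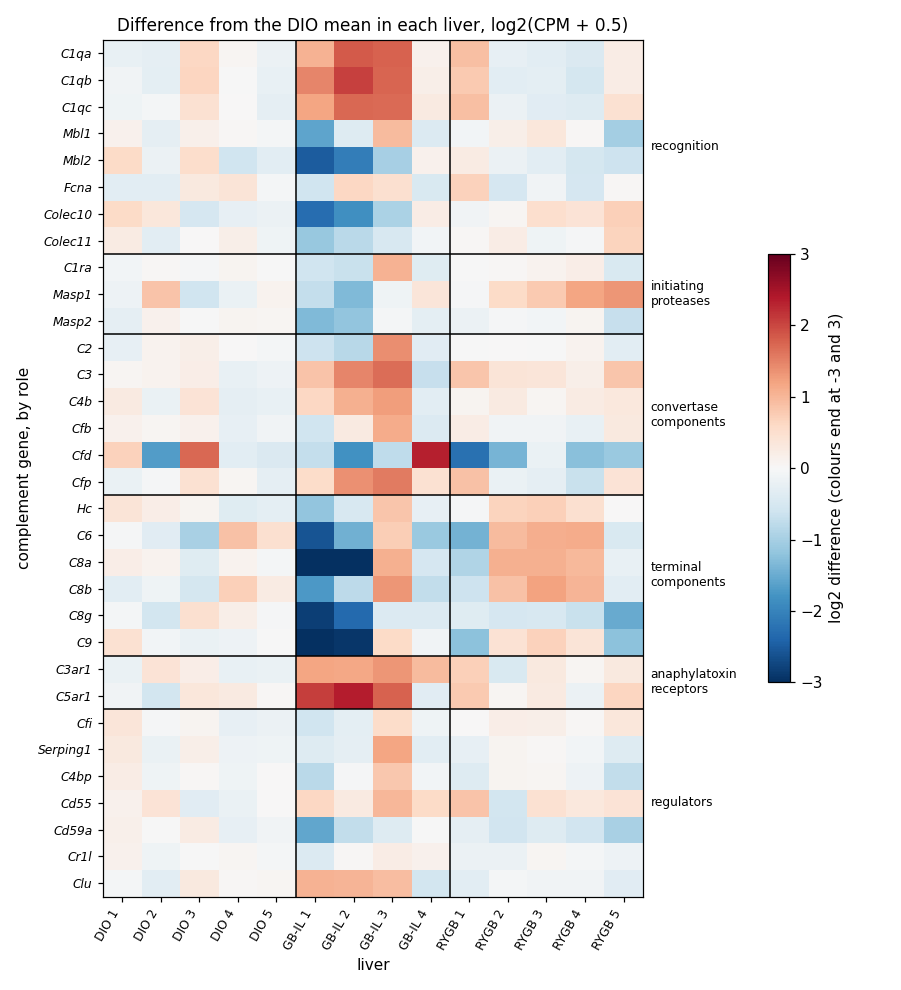
Each column is a liver and each line a complement gene, ordered by role; the colour is log2(CPM + 0.5) minus the mean of the DIO livers, red for higher and blue for lower. GB-IL livers 1 and 2 combine high C1q and receptor genes with low terminal genes, and GB-IL liver 3 is above the highest DIO liver in 23 of 32 genes.

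The liver-by-liver view differs within the GB-IL group. In GB-IL liver 1, 10 members lay above the highest DIO liver and 21 below the lowest, where 36.1% and 37.5% of all genes did. GB-IL liver 2 had 11 above and 18 below (35.4% and 35.9% of all genes). GB-IL liver 3 had 23 above and 4 below (25.6% and 18.3%), so most of its complement genes were high. GB-IL liver 4 had 4 above and 13 below (15.6% and 14.4%). The standard deviation of log2 levels was larger in GB-IL than in DIO livers for 31 of 32 members, C3ar1 being the exception, as for 84.3% of all genes. Its median over members was 0.28 in DIO, 0.78 in GB-IL and 0.38 in RYGB livers, beside 0.26, 0.51 and 0.27 over all genes.

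C1q, the recognition protein of the classical pathway, is built from the chains of C1qa, C1qb and C1qc, which lie next to each other on the minus strand of chromosome 4 (GRCm38, chr4:136880129-136898803). C1qb read 61.5, 53.6, 105, 65.2 and 56.6 CPM in DIO livers 1 to 5, 184, 278, 225 and 75.4 in GB-IL livers 1 to 4 and 115, 53.5, 53.9, 45.6 and 77.4 in RYGB livers 1 to 5. GB-IL livers 1, 2 and 3 were above every DIO liver, while GB-IL liver 4 lay among them and RYGB liver 1 slightly above them. The mean of C1qb rose from 68.3 ± 20.8 CPM (SD over 5 livers) to 190.4 ± 85.8 CPM (SD over 4 livers), with a log2 fold change of 1.48, SE 0.35, adjusted p = 0.0365.

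C1qc read 52.2, 55.1, 78.4, 57.9 and 47.2 CPM in DIO livers 1 to 5, 130.0, 189, 187 and 68.9 in GB-IL livers 1 to 4 and 107, 50.9, 45.1, 43.9 and 79.0 in RYGB livers 1 to 5. The same 3 GB-IL livers were above all DIO and all RYGB livers, and GB-IL liver 4 was inside the DIO range. C1qc rose in GB-IL against DIO (log2 fold change of 1.31, SE 0.32, adjusted p = 0.0401). C1qa, the remaining chain, averaged 59.4 ± 17.0 CPM (SD over 5 livers) and 147 ± 68.1 CPM (SD over 4 livers) in these groups and missed the threshold with an adjusted p of 0.0544. It was called in 7 of 25 alternative settings: upper quartile scaling, DESeq2, voom, the exact test, and without GB-IL liver 4, RYGB liver 1, or GB-IL livers 1 and 4 together. Per kilobase of exon, the level of C1qa was 0.679 to 0.980 times that of C1qb in the 14 livers and that of C1qc 0.383 to 0.578 times. The lowest of these ratios were in GB-IL livers 1 and 2. The call of C1qb was lost in 11 of 25 alternative settings and that of C1qc in 12, among them each DIO liver, each of GB-IL livers 1, 2 and 3 and RYGB liver 3 left out, and for C1qc also RYGB liver 2; adjusted p over the settings ran from 0.00197 to 0.11 for C1qb and from 0.00303 to 0.113 for C1qc, with log2 fold changes of 1.22 to 1.87 and 1.13 to 1.68.

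Levels of macrophage and other markers stand beside the C1q genes. Summed over 13 macrophage markers, with Cd5l the most abundant, the level was 633, 814, 846, 553 and 508 CPM in DIO livers 1 to 5, 1249.8, 1358, 2803 and 1097 in GB-IL livers 1 to 4 and 1201, 532, 709, 554 and 844 in RYGB livers 1 to 5. No DIO liver reached the lowest of the 4 GB-IL livers (two-sided exact permutation p = 0.0159, the smallest that 4 against 5 livers can give; adjusted over 39 such tests 0.265). In GB-IL liver 1 that rests on Cd14, at 493, 145, 57.7 and 5.57 CPM in GB-IL livers 1 to 4 and 3.77 to 5.56 CPM in DIO. With Cd14 left out, after seeing the data, the sums were 757, 1213, 2745.5 and 1091 CPM in GB-IL and 504 to 842 CPM in DIO livers (unadjusted exact p = 0.0476), and GB-IL liver 1 lay inside the DIO range. In that liver Adgre1, Timd4 and Cd5l were below every DIO liver, at 7.20, 2.47 and 65.0 CPM against at least 15.2, 5.77 and 101 CPM. Aif1 and Clec4f were below every DIO liver there too. Lyz2, Marco and Cd68 were above every DIO liver in it, at 4648, 2742 and 725 counts against at most 2065, 1195 and 379 counts. The markers of GB-IL liver 2 were mixed too: Adgre1, Timd4 and Cd163 were below every DIO liver, at 15.02, 3.11 and 11.07 CPM (Cd163 in DIO at least 15.8 CPM), while Lyz2 and Marco were at 414 and 138 CPM against at most 102 and 58.8 CPM. Of those 13 genes 4 were called higher in GB-IL than in DIO (Cd68, Marco, Cd14 and Lyz2) and 0 lower. Clec4f, a marker of resident liver macrophages, ran from 129 to 202 CPM in DIO and was 42.2, 169.5, 280.3 and 141 CPM in GB-IL livers 1 to 4. Monocyte markers, led by Chil3, summed to 90.7, 152, 102 and 12.2 CPM in GB-IL livers 1 to 4 against 5.66 to 11.04 CPM in DIO, with 3 of 5 called higher. Chil3 alone was 72.8 and 128 CPM in GB-IL livers 1 and 2, and with it left out the sums were 17.9, 24.1, 64.9 and 12.03 CPM in GB-IL and 5.66 to 10.9 CPM in DIO. Ccr2, another of the 5, was below every DIO liver in GB-IL livers 1 and 2. Of the 8 neutrophil markers tested, 5 were called higher, S100a9 being the most abundant. The part of these cells in the C1q result was not tested.

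The recognition genes of the lectin pathway gave no call by the quasi-likelihood test in all 14 livers. DESeq2 and the exact test called Colec11 in GB-IL against RYGB, and without GB-IL liver 4 Mbl2, Colec10 and Colec11 were called in both GB-IL comparisons. Mbl2, the recognition gene with the highest level per kilobase, read 598, 358, 578, 264 and 323 CPM in DIO livers 1 to 5, 71.0, 95.3, 203 and 443 in GB-IL livers 1 to 4 and 480.0, 357, 321, 279.9 and 260.0 in RYGB livers 1 to 5. Below every DIO liver were GB-IL livers 1, 2 and 3, while GB-IL liver 4 lay inside their range. The difference missed the threshold (log2 fold change of -1.06, SE 0.45, adjusted p = 0.184). Without GB-IL liver 4 it passed, with a log2 fold change of -1.79 and an adjusted p of 0.0065. Mbl1 ranged from 55.1 to 321 CPM in GB-IL livers around 139 to 187 CPM in DIO. Fcna ranged from 40.8 to 95.3 CPM in GB-IL and from 49.6 to 81.1 CPM in DIO. The DIO mean of Colec10 was 28.9 ± 9.31 CPM (SD over 5 livers) and its GB-IL mean 14.8 ± 12.3 CPM (SD over 4 livers). For Colec11 the means were 36.0 ± 5.61 CPM (SD over 5 livers) and 23.8 ± 7.65 CPM (SD over 4 livers). Both collectins are known from stellate cells, whose 9 markers summed to 595, 300.3, 151 and 259 CPM in GB-IL livers 1 to 4 and 246 to 317 CPM in DIO, with Ecm1 the most abundant over the 14 livers. Des was 243 CPM in GB-IL liver 1 and 3.35 to 5.26 CPM in DIO, and with it left out the sums were 352, 288, 146 and 255 CPM in GB-IL and 243 to 312 CPM in DIO. The part of stellate cells was not tested.

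The initiating proteases cleave the next components once a recognition protein is bound. C1ra, the highest of them per kilobase, read 185, 201, 193, 209 and 195 CPM in DIO livers 1 to 5, 129, 123, 406 and 154 in GB-IL livers 1 to 4 and 194, 200.04, 213, 224 and 143 in RYGB livers 1 to 5. GB-IL liver 3 was far above the DIO range, which is narrow, and GB-IL livers 1, 2 and 4 were below it, so the group mean hardly moved (log2 fold change of 0.05, SE 0.30, adjusted p = 0.937). Without GB-IL liver 3 the log2 fold change was -0.54. Masp2 ran from 61.1 to 148 CPM in GB-IL and from 127 to 169 CPM in DIO livers. Its exons overlap those of Tardbp on the other strand over 54.9% of their length, and the strand setting of the counting is not given in the sources used here.

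C3 is the protein that every pathway splits, and C3 was the most abundant member in DIO livers at 1422 CPM per kilobase, rank 43 among the 14115 tested genes with a known length. C3 read 7608, 7856, 8290.3, 6247 and 6568 CPM in DIO livers 1 to 5, 13212, 20051, 23063 and 4517 in GB-IL livers 1 to 4 and 12859, 9536, 9356, 8221 and 12983 in RYGB livers 1 to 5. GB-IL livers 1, 2 and 3 were above every DIO liver and GB-IL liver 4 below all of them, so the groups overlap. The difference missed the threshold (log2 fold change of 1.06, SE 0.37, adjusted p = 0.114). Without GB-IL liver 4 it passed, with a log2 fold change of 1.35 and an adjusted p of 0.00268, and it passed with DESeq2, at 0.0404; over all settings adjusted p ran from 0.00217 to 0.281. C3 took 40.2% to 46.7% of the members' summed CPM in DIO livers, 58.5%, 63.8%, 55.9% and 36.1% in GB-IL livers 1 to 4 and 43.0% to 60.2% in RYGB livers.

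All 6 convertase genes, C3 included, had fitted values above 0 in GB-IL against DIO, none past the threshold of the quasi-likelihood test. Cfp was called by DESeq2 and the exact test, and C3, C4b and Cfp without GB-IL liver 4; with GB-IL livers 1 and 4 left out together these 3 and Cfb were called. The direction of 3 genes depends on 1 liver. Without GB-IL liver 3 the log2 fold changes of C2 and Cfb were -0.60 and -0.21. That of Cfd was -2.004 without GB-IL liver 4 and -0.31 with voom. With a block by replicate number C2 and Cfd were at -0.08 and -0.31. The DIO mean of C4b was 1512 ± 346 CPM (SD over 5 livers) and its GB-IL mean 2516 ± 1030.5 CPM (SD over 4 livers). For Cfp the means were 33.0 ± 7.20 CPM (SD over 5 livers) and 68.7 ± 26.6 CPM (SD over 4 livers). C2 and Cfb, neighbours of C4b on chromosome 17, were highest in GB-IL liver 3, at 129.7 and 212 CPM. C2 was at 31.7, 27.3 and 38.8 CPM in GB-IL livers 1, 2 and 4, below every DIO liver (41.6 to 55.9 CPM), as was Cfb in GB-IL livers 1 and 4, at 64.2 and 74.0 CPM (DIO 83.2 to 108 CPM). A read-through gene, Gm20547, covers 42.8% of the exon length of C2 and 79.5% of that of Cfb, so their counts are less certain, as are those of C4b beside its near copy C4a. Cfd, known from adipocytes, read 0.169 to 0.946 CPM in GB-IL livers 1 to 3 and 11.5 CPM in GB-IL liver 4, the liver with the Adipoq, Lep and Plin1 counts; DIO livers ran from 0.246 to 7.38 CPM. The part of adipocytes in Cfd was not tested.

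Acute phase genes, which hepatocytes switch on in inflammation, stand beside C3 here. Of 22 such genes 15 were called higher in GB-IL than in DIO and 0 lower, beside 3.15% and 0.112% of all genes, with a median log2 fold change of 2.28. Lcn2 read 9.20 to 57.9 CPM in DIO livers and 3182, 4465, 3300.1 and 16.6 CPM in GB-IL livers 1 to 4. Saa1 read 30.2 to 358 CPM in DIO and 1888, 2109, 14859 and 71.6 CPM in GB-IL livers, with its close copy Saa2 making the split between them uncertain. GB-IL livers 1, 2 and 3 were high and GB-IL liver 4 lay in the DIO range for both genes. Without any 1 DIO liver or without GB-IL liver 1 or 2, 0 of the 22 passed the adjusted threshold. At an unadjusted p under 0.05 the full set of livers gave 19 of 22 higher, beside 16.7% of all genes. In RYGB against DIO the quasi-likelihood test called 0 of the 22. At an unadjusted p under 0.05, 3 were higher and 1 lower, beside 5.35% and 3.36% of all genes. DESeq2 called 1 there, voom 4 and the exact test 1. In GB-IL against RYGB the quasi-likelihood test also called 0 of the 22. There 19 were higher and 0 lower at an unadjusted p under 0.05, beside 15.3% and 6.77% of all genes. DESeq2 called 12, voom 3 and the exact test 11. With 1 liver left out, the quasi-likelihood test called 0 to 20 of the 22 in this comparison and 0 to 19 in GB-IL against DIO. The link between this list and C3 was not tested.

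**Figure D2:**
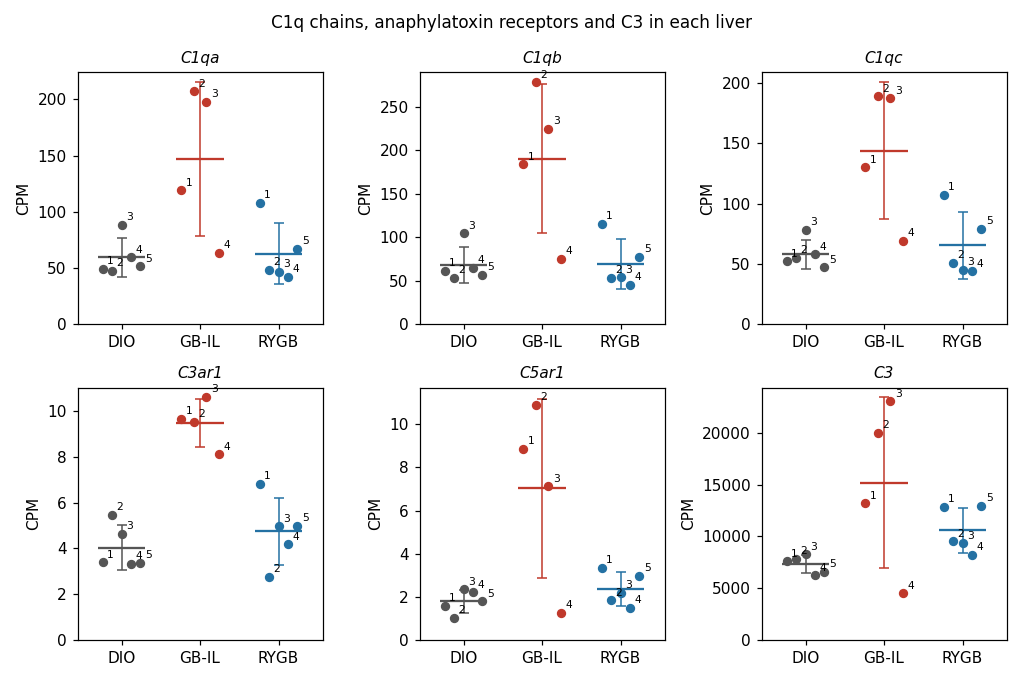
CPM of the 3 C1q chains, the 2 anaphylatoxin receptors and C3; points are livers numbered by replicate, the line is the group mean and the error bar the SD (5 DIO, 4 GB-IL, 5 RYGB). C3ar1 is the panel in which all 4 GB-IL livers, 8.12 to 10.6 CPM, sit above all others.

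The terminal components assemble the pore that lyses a target, and their fitted values were below 0 in 6 of 6 genes, GB-IL against DIO, none past the threshold of the quasi-likelihood test. For Hc and C8b the values were close to 0, at -0.11 and -0.080. Both were above 0 without GB-IL liver 1 (0.11 and 0.20) and with voom (0.42 and 0.16), and C8b also without GB-IL liver 2 or 4 or DIO liver 4 (0.079, 0.095 and 0.14). With GB-IL livers 1 and 4 left out together 3 of the 6 were above 0: Hc at 0.27, C8a at 0.11 and C8b at 0.52. C8g, the terminal gene with the highest level per kilobase in DIO livers, read 396, 282, 570.4, 462 and 398 CPM in DIO livers 1 to 5, 57.8, 81.3, 307 and 307 in GB-IL livers 1 to 4 and 319.9, 288, 294, 259 and 144 in RYGB livers 1 to 5. GB-IL livers 1 and 2 were below every DIO liver, and GB-IL livers 3 and 4 lay inside the DIO range (log2 fold change of -1.16, SE 0.45, adjusted p = 0.147; 0.0341 without GB-IL liver 4). C8a spread most, with 14.7, 61.6, 1057 and 351 CPM in GB-IL livers 1 to 4 against 387 to 578 CPM in DIO. C9, the pore-forming subunit, was at 54.2, 58.3, 659.6 and 408 CPM in GB-IL livers and 382 to 602 CPM in DIO. For both genes GB-IL livers 1 and 2 were far below the DIO range and GB-IL liver 3 above it. Hc, C6 and C8b ranged from 401 to 1623, 28.1 to 286 and 44.2 to 368 CPM in GB-IL livers, and GB-IL liver 1 was the lowest and GB-IL liver 3 the highest in each. In DIO livers these 3 genes ranged from 698 to 1179, 86.8 to 315 and 102 to 244 CPM. Summed over the 6 genes, the level was 600.2, 993, 4302 and 1991 CPM in GB-IL livers 1 to 4 and 2469.8 to 3040.2 CPM in DIO. Some hepatocyte markers were low in the same livers: Fabp1 was 33.8, 81.9, 938 and 4789 CPM in GB-IL livers 1 to 4 and 3268 to 4915 CPM in DIO, and Ttr 1607, 2186, 3742 and 6014 CPM beside 5696 to 9294 CPM. By contrast Ahsg, Apoa1 and Tf, hepatocyte markers too, were above every DIO liver in GB-IL livers 1, 2 and 3. Alb, like Fabp1 and Ttr, was below every DIO liver in them, and Apoa2, Serpina1a and Cps1 held neither order. The part of hepatocytes in the terminal genes was not tested.

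**Figure D3:**
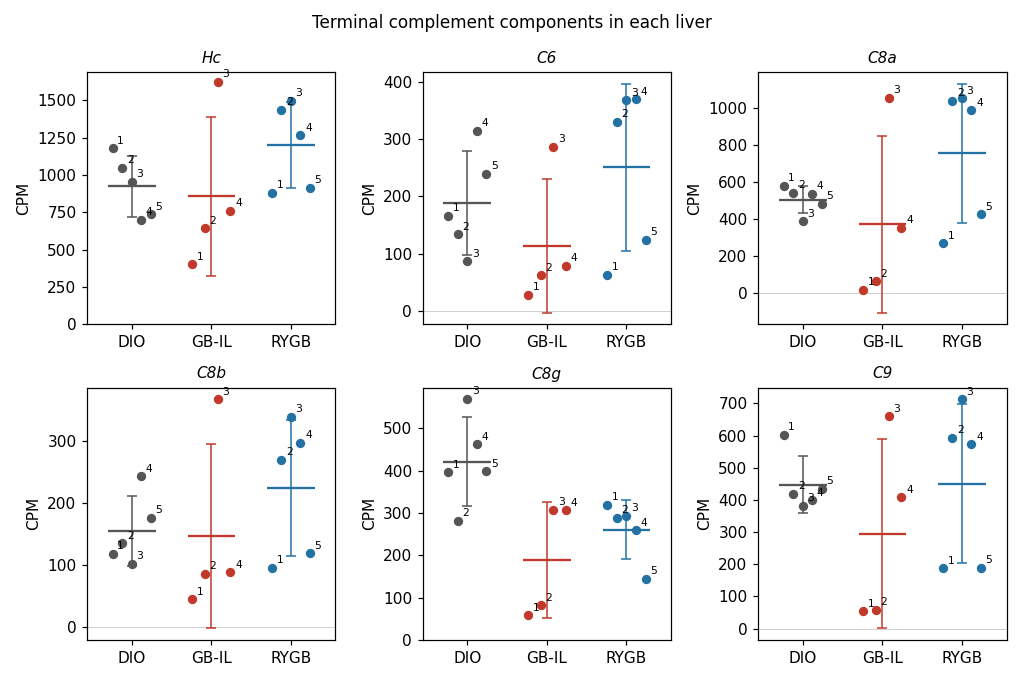
CPM of the 6 terminal components, with points for livers numbered by replicate, a line at the group mean and an error bar of 1 SD (5 DIO, 4 GB-IL, 5 RYGB). GB-IL livers 1 and 2 lie below every DIO liver in 6 of 6 panels, GB-IL liver 3 lies above every DIO liver for Hc, C8a, C8b and C9, and RYGB livers 2, 3 and 4 exceed RYGB livers 1 and 5 in 5 of 6 panels.

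The anaphylatoxin receptors bind the fragments C3a and C5a and draw in myeloid cells. Both rose in GB-IL, from the lowest levels among the members: 0.938 CPM per kilobase for C3ar1 and 0.695 for C5ar1 in DIO livers. C3ar1 (GRCm38, chr6:122847138-122856161, minus strand) read 3.40, 5.46, 4.63, 3.34 and 3.36 CPM in DIO livers 1 to 5, 9.67, 9.54, 10.6 and 8.12 in GB-IL livers 1 to 4 and 6.84, 2.76, 4.96, 4.18 and 4.98 in RYGB livers 1 to 5. Every GB-IL liver, liver 4 included, was above every DIO and every RYGB liver. The rise against DIO was a log2 fold change of 1.23, SE 0.25, adjusted p = 0.0278.

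C5ar1 (GRCm38, chr7:16246743-16259540, minus strand) read 1.57, 1.03, 2.34, 2.21 and 1.78 CPM in DIO livers 1 to 5, 8.88, 10.9, 7.12 and 1.25 in GB-IL livers 1 to 4 and 3.34, 1.82, 2.18, 1.49 and 2.98 in RYGB livers 1 to 5. GB-IL livers 1, 2 and 3 were well above the DIO range and GB-IL liver 4 was inside it, and the rise gave a log2 fold change of 1.97, SE 0.46, adjusted p = 0.0352. The call of C3ar1 was lost in 9 of 25 settings and that of C5ar1 in 11, among them each DIO liver and GB-IL liver 1 or 2 left out, for C5ar1 also RYGB liver 3 left out and voom; adjusted p ran from 0.000249 to 0.0942 and from 0.000566 to 0.126. With 1 liver left out their log2 fold changes ran from 1.17 to 1.36 and from 1.67 to 2.32. The monocyte and neutrophil sums given above were also high in GB-IL livers 1, 2 and 3, the monocyte sum of the first 2 mostly through Chil3, while macrophage markers were mixed in those 2, as given above. Their part in the receptor result was not tested.

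The regulators split. Clu, a chaperone that also blocks the terminal pore, read 1778, 1483, 2275, 1898 and 1946 CPM in DIO livers 1 to 5, 3848, 3741, 3511 and 1268 in GB-IL livers 1 to 4 and 1483, 1792, 1717, 1739 and 1469.9 in RYGB livers 1 to 5. GB-IL livers 1, 2 and 3 were above every DIO liver, GB-IL liver 4 below all of them, and the RYGB livers were close together. The difference from DIO missed the threshold (log2 fold change of 0.72, SE 0.28, adjusted p = 0.153; 0.00367 without GB-IL liver 4). Cd59a, which stops the pore on the body's own cells, read 86.7, 77.5, 93.4, 65.8 and 72.4 CPM in DIO livers 1 to 5, 26.4, 47.0, 59.5 and 77.5 in GB-IL livers 1 to 4 and 65.1, 52.3, 59.9, 52.3 and 39.9 in RYGB livers 1 to 5. All 5 RYGB livers and GB-IL livers 1, 2 and 3 were below every DIO liver (GB-IL against DIO: log2 fold change of -0.59, SE 0.25, adjusted p = 0.184; 0.0253 without GB-IL liver 4). Serping1 was 2367 CPM in GB-IL liver 3 and 793 to 858 CPM in the other GB-IL livers, against 905 to 1264 CPM in DIO. Cfi, C4bp, Cd55 and Cr1l had GB-IL means of 615, 679, 18.8 and 37.5 CPM beside DIO means of 647, 642, 12.1 and 37.1 CPM.

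Because C1qb, C1qc, C3ar1 and C5ar1 were called together, their promoters are shown, with that of C3 for its place in the cascade. Each is 300 bases from RefSeq (GRCm38.p6) around the gene start, read 5′ to 3′ on the gene's strand, which is minus for all 5. The windows are chr4:136886151-136886450 for C1qb, chr4:136892865-136893164 for C1qc, chr6:122856108-122856407 for C3ar1, chr7:16259289-16259588 for C5ar1 and chr17:57228087-57228386 for C3. Capitals mark the PU.1 letters (GAGGAA) in C1qb and C1qc, the NF-kB letters (GGNNTTTCC) in C3ar1 and the C/EBP letters (TTGCNNAA) in C3, each searched on both strands and found on the reverse strand in C1qc and C3ar1. C5ar1 holds none of the 5 motifs searched and has no capitals.
C1qb: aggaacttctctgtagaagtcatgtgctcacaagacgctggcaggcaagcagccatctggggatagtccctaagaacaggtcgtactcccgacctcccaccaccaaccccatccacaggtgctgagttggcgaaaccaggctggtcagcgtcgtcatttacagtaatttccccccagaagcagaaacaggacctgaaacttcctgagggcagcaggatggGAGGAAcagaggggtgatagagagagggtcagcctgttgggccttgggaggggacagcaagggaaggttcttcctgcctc
C1qc: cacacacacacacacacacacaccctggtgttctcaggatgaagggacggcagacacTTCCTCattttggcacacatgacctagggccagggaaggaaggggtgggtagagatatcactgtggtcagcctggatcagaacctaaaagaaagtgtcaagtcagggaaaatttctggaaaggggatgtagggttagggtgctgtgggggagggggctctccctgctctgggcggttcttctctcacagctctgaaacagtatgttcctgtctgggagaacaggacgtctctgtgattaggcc
C3ar1: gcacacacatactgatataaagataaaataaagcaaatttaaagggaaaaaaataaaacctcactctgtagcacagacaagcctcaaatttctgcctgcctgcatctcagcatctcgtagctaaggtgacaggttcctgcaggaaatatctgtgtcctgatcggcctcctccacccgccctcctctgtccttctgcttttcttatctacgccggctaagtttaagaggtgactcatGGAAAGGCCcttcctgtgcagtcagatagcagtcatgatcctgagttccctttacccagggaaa
C5ar1: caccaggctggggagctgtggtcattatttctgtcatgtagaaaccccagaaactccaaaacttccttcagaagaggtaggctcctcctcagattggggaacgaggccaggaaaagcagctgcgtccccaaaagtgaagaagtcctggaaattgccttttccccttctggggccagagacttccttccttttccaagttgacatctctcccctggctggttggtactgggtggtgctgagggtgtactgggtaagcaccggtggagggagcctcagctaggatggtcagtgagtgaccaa
C3: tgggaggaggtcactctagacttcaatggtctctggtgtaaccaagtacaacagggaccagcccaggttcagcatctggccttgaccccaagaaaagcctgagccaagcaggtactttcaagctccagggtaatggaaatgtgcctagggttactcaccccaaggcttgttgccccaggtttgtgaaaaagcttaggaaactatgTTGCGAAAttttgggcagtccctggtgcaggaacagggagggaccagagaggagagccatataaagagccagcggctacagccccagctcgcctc
The PU.1 letters begin at -30 in C1qb and -193 in C1qc, the NF-kB letters at -14 in C3ar1 and the C/EBP letters at -45 in C3. Positions count from the same base of every window, taken as the gene start. The GENCODE start of C1qc, chr4:136893065, lies upstream of that base, so the positions in C1qc hold only for the start taken here. Interferon response letters, not in capitals, begin at -108 in C1qc, -209 in C3ar1 and -119 in C3. Of 32851 promoter windows 28.3% hold the PU.1 letters, 5.82% the NF-kB letters and 10.8% the C/EBP letters; the STAT letters (TTCNNNGAA) are in 8.3% and the interferon response letters (AANNGAAA) in 23.9%. Letters of these motifs can overlap one another in a window. A promoter was in the table for 23 of the 32 members, and the PU.1, STAT, C/EBP, NF-kB and interferon letters were in 6, 4, 3, 1 and 8 of them. C1qa, Colec10, Masp1, C2, C4b, Cfb, Cfi, Serping1 and Clu had no entry. A match describes letters only.

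Gastric bypass was compared with no operation in the same way, with the same DIO livers as controls. By the edgeR quasi-likelihood test 0 of 32 members were higher and 0 lower in RYGB than in DIO, where 0% of all genes were called higher and 0% lower. DESeq2 and edgeR's exact test also called 0 members, and voom called 3 (Masp1, Hc and Cd59a). Over all genes DESeq2 called 60 higher and 34 lower, the exact test 26 and 18, and voom 867 and 823 of 14252. At an unadjusted p under 0.05, 1 member was higher (5.35% of all genes), which was Masp1, and 1 was lower (3.36% of all genes), Cd59a. No member had all RYGB livers above all DIO livers (1.87% of all genes), and in Cd59a all 5 RYGB livers lay below (1.66% of all genes). The members' median log2 fold change was 0.05, beside 0.01 over all genes.

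Masp1, a protease of the lectin pathway, read 30.7, 62.0, 22.4, 29.7 and 36.8 CPM in DIO livers 1 to 5, 20.5, 13.3, 31.0 and 44.0 in GB-IL livers 1 to 4 and 33.1, 51.3, 59.3, 78.6 and 86.7 in RYGB livers 1 to 5. RYGB livers 4 and 5 were above every DIO liver and the other 3 lay inside the DIO range (log2 fold change of 0.77, SE 0.34, adjusted p = 0.551; 0.0276 with voom). For Cd59a the value was a log2 fold change of -0.55, SE 0.24, adjusted p = 0.547, and 0.0358 with voom. C3 in RYGB livers 1, 2, 3 and 5 was above every DIO liver (log2 fold change of 0.53, SE 0.35, adjusted p = 0.694). C8g gave a log2 fold change of -0.69, SE 0.41, adjusted p = 0.661, Mbl2 a log2 fold change of -0.32, SE 0.42, adjusted p = 0.866 and Clu a log2 fold change of -0.19, SE 0.27, adjusted p = 0.872. The genes called in GB-IL had smaller values here: C1qb 0.02 (SE 0.33, adjusted p = 0.992), C1qc 0.17 (SE 0.30, adjusted p = 0.909), C3ar1 0.23 (SE 0.23, adjusted p = 0.814) and C5ar1 0.40 (SE 0.44, adjusted p = 0.831). C1ra was at -0.01 (SE 0.29, adjusted p = 0.992).

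Within the RYGB group the terminal genes split the livers into 2 sets. C8a was at 1042, 1055 and 989.6 CPM in RYGB livers 2, 3 and 4 and at 268 and 426 CPM in RYGB livers 1 and 5. RYGB livers 1 and 5 were the lowest pair of the group for Hc, C6, C8a, C8b and C9, but not for C8g, where RYGB liver 1 was the highest at 319.9 CPM. Unoperated livers differed too. C6 and C8b were higher in DIO livers 4 and 5 than in DIO livers 1 to 3, Hc was lower, and C8a, C8g and C9 held neither order. RYGB liver 1 also had the highest C1q levels of the group, with C1qa at 108 CPM, and macrophage markers at 1201 CPM. RYGB liver 5 had the neutrophil sum of 134 CPM, and members above and below the DIO range numbered 7 and 12 (27.3% and 26.1% of all genes). RYGB liver 1 had 10 above and 9 below (18.2% and 16.1%). Hepatocyte, macrophage, monocyte, neutrophil, endothelial and erythroid sums were higher in RYGB livers 1 and 5 than in the other 3. Adipocyte and pancreas acinar sums were lower there, and the remaining marker lists held neither order. Erythroid sums were 944 and 1815 CPM beside 175, 193 and 111 CPM. In DIO livers 1 to 5 they were 1247, 2295, 1290, 361 and 255 CPM. Acute phase genes went both ways across this split. Of the 22, RYGB livers 1 and 5 were above the other 3 in 10 and below them in 4 (Saa4, Fga, Fgb and Fgg), with 8 in neither order. The 2 sets were chosen from the terminal genes, and no share over all genes stands beside these counts. Lcn2 was 341 and 318 CPM in RYGB livers 1 and 5 and 71.1, 44.4 and 17.2 CPM in RYGB livers 2, 3 and 4, and Fgg, in the opposite order, 2255 and 3506 CPM beside 4448, 4649 and 4479 CPM. The link of these acute phase genes and marker sums to the terminal genes was not tested.

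The operations were then set against each other, GB-IL against RYGB, which asks where rerouting bile alone leaves the liver other than the bypass does. The edgeR quasi-likelihood test called 0 of 32 members higher and 0 lower, with 0% of all genes called higher and 0% lower. DESeq2 called 8 members, edgeR's exact test 7 and voom 1, C3ar1, where over all genes they called 689 higher and 188 lower, 568 and 113, and 111 and 4. Unadjusted p was under 0.05 for 8 members higher (15.3% of all genes) and 3 lower (6.77% of all genes): Cfp, Clu, C1qa, C1qc, C1qb, C3ar1, C5ar1 and Cfd above, Masp1, Colec11 and Colec10 below. In 1 member, C3ar1, all GB-IL livers were above all RYGB livers (1.27% of all genes), and in 0 all were below (1.57% of all genes). Without GB-IL liver 4, 13 members passed, 9 higher and 4 lower, beside 1948 and 1172 genes over the whole table, and 11 passed without GB-IL livers 1 and 4, beside 1053 and 406 genes.

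For C1qb the difference from RYGB was a log2 fold change of 1.46, SE 0.35, adjusted p = 0.0839, and for C3ar1 a log2 fold change of 1.00, SE 0.24, adjusted p = 0.0839. C1qc gave 1.14 (SE 0.32, adjusted p = 0.0998) and C5ar1 1.57 (SE 0.46, adjusted p = 0.105). Masp1 gave -1.18 (SE 0.37, adjusted p = 0.117) and Clu 0.91 (SE 0.28, adjusted p = 0.115). None of these 6 passed the quasi-likelihood test. DESeq2 called all 6, with adjusted p of 0.00573 for C1qb, 0.0059 for C3ar1, 0.0235 for C1qc, 0.0266 for C5ar1, 0.0403 for Masp1 and 0.0285 for Clu, and the exact test called all but Clu. C3 was at 0.52 (SE 0.36, adjusted p = 0.389), Mbl2 at -0.74 (SE 0.45, adjusted p = 0.329), C8g at -0.47 (SE 0.44, adjusted p = 0.515), C1ra at 0.06 (SE 0.30, adjusted p = 0.914) and Cd59a at -0.03 (SE 0.25, adjusted p = 0.942). On leaving out 1 liver, C3 ran from 0.25 to 0.82, Mbl2 from -1.47 to -0.47 and C8g from -0.82 to -0.19. C3 and Mbl2 passed the quasi-likelihood test without GB-IL liver 4, with adjusted p of 0.0324 and 0.0194. The members' median log2 fold change was 0.11, beside 0.03 over all genes. By role it was 0.54 for convertase genes and -0.61 for terminal genes. These were 0.31 and -1.51 without GB-IL liver 3, but 0.59 and -0.31 when GB-IL liver 1 is left out.

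Complement genes outside the 32 came from a list of 34 symbols, of which 33 were found and 26 had enough counts. Of these 26, 3 were called higher in GB-IL than in DIO (3.15% of all genes) and 0 lower (0.112% of all genes). At an unadjusted p under 0.05 there were 9 and 3 (16.7% and 6.43% of all genes). DESeq2, voom and the exact test called 5 each in all. With 1 liver left out, the quasi-likelihood test called 0 to 11 of the 26 in GB-IL against DIO and 0 to 3 in GB-IL against RYGB. Apcs, serum amyloid P, which binds C1q, read 105, 41.3, 60.2, 38.5 and 38.7 CPM in DIO livers 1 to 5, 345, 445, 1389 and 65.2 in GB-IL livers 1 to 4 and 149, 183, 89.3, 71.8 and 459 in RYGB livers 1 to 5. Again GB-IL livers 1, 2 and 3 were above every DIO liver and GB-IL liver 4 was inside their range (log2 fold change of 3.31, SE 0.72, adjusted p = 0.031). Itgam, a chain of complement receptor 3 on myeloid cells, read 1.47, 2.66, 0.763, 0.792 and 0.721 CPM in DIO livers 1 to 5, 12.1, 7.74, 13.5 and 1.92 in GB-IL livers 1 to 4 and 3.06, 1.04, 2.32, 1.65 and 10.97 in RYGB livers 1 to 5. The same 3 GB-IL livers and RYGB liver 5 stood out (log2 fold change of 2.77, SE 0.69, adjusted p = 0.0433), and 68.7% of its exon length is shared with Gm49368. C7, the terminal component absent from the 32, read 1.62, 0.640, 1.27, 0.736 and 1.11 CPM in DIO livers 1 to 5, 12.2, 1.64, 2.04 and 2.95 in GB-IL livers 1 to 4 and 1.91, 2.17, 2.29, 2.85 and 2.73 in RYGB livers 1 to 5. All GB-IL and all RYGB livers were above every DIO liver, GB-IL liver 2 by little and GB-IL liver 1 by far (log2 fold change of 2.12, SE 0.51, adjusted p = 0.0387). These calls were lost in 10, 13 and 15 of 25 settings for Apcs, Itgam and C7, and without any 1 DIO liver or GB-IL liver 1 or 2 none of them passed. Apcs and Itgam also missed it without GB-IL liver 3, Itgam without RYGB liver 1, 3 or 4 and C7 without RYGB liver 1, 2, 3 or 4, and the log2 fold change of C7 was 1.03 without GB-IL liver 1. Without GB-IL liver 3 those of Apcs and Itgam were 2.335 and 2.49.

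Of the remaining genes of that list, C4a, the near copy of C4b, read 30.5, 35.2, 44.6, 150.4 and 162 CPM in DIO livers 1 to 5, 19.3, 21.5, 56.4 and 16.8 in GB-IL livers 1 to 4 and 12.7, 52.6, 27.0, 30.4 and 17.7 in RYGB livers 1 to 5. DIO livers 4 and 5 were far above all other livers (log2 fold change of -1.57, SE 0.59, adjusted p = 0.138; against DIO in RYGB, log2 fold change of -1.59, SE 0.54, adjusted p = 0.468). Itgax, a chain of complement receptor 4, read 2.09, 1.67, 1.12, 0.792 and 0.817 CPM in DIO livers 1 to 5, 5.04, 2.94, 4.28 and 1.25 in GB-IL livers 1 to 4 and 1.42, 1.09, 1.20, 1.57 and 0.796 in RYGB livers 1 to 5. The first 3 GB-IL livers were above all others (log2 fold change of 1.37, SE 0.40, adjusted p = 0.07; against RYGB, log2 fold change of 1.47, SE 0.40, adjusted p = 0.0936). Susd4, a regulator of the convertase, read 20.7, 23.6, 20.2, 38.2 and 21.3 CPM in DIO livers 1 to 5, 2.10, 2.26, 17.0 and 11.99 in GB-IL livers 1 to 4 and 19.7, 54.9, 61.8, 46.3 and 14.1 in RYGB livers 1 to 5. All GB-IL livers were below every DIO liver and GB-IL livers 1 and 2 lowest by far (log2 fold change of -1.57, SE 0.59, adjusted p = 0.141; against RYGB, log2 fold change of -2.23, SE 0.60, adjusted p = 0.0947). In RYGB against DIO and in GB-IL against RYGB the quasi-likelihood test called 0 of the 26; at an unadjusted p under 0.05 there were 6 higher and 1 lower in the former (5.35% and 3.36% of all genes) and 3 higher and 1 lower in the latter (15.3% and 6.77%), and DESeq2, voom and the exact test called 0, 5 and 0 in the former and 2, 0 and 2 in the latter. Fcnb, a ficolin known from neutrophils, was too low to test, with 71 counts in GB-IL liver 3, the liver with the highest neutrophil sum.

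Per kilobase the order of the members in DIO livers began with C3, then Clu at 546, Serping1 at 449, Mbl2 at 389, Cfi at 291 and C8g at 282 CPM per kilobase, and ended with Cd55 at 2.50 and the receptors. Close copies limit what the counts can separate: C1ra and C1rb, Cd59a and Cd59b, Cr1l and Cr2, and C4b and C4a. Among the other cell type lists, hepatocyte markers had 0 of 9 called in GB-IL against DIO, endothelial 0 of 8, T cell 0 of 5, B and plasma cell 0 of 4 tested, dendritic cell 0 of 4 tested, adipocyte 0 of 5 tested and pancreas acinar 0 of 1 tested, while cholangiocyte had 3 of 6 higher (Krt19, Krt7 and Spp1), stellate 1 of 9 higher (Des) and erythroid 1 of 5 lower (Alas2). Cholangiocyte markers, led by Spp1, summed to 321, 263, 219 and 58.2 CPM in GB-IL livers 1 to 4 and 30.4 to 66.0 CPM in DIO livers. The adipocyte sum was almost all Pck1 and Car3, which hepatocytes express too, and without these 2 it was 23.6 to 51.4 CPM in DIO, 41.4 to 75.1 CPM in GB-IL and 25.9 to 166 CPM in RYGB livers. Of 82 marker genes tested, the quasi-likelihood test called 0 in RYGB against DIO and 0 in GB-IL against RYGB. At an unadjusted p under 0.05, 10 were higher and 3 lower in the former, beside 5.35% and 3.36% of all genes. The latter had 22 higher and 7 lower, beside 15.3% and 6.77% of all genes. Across the 39 permutation tests of summed marker levels, 7 had an exact p under 0.05 and 0 passed after adjustment, the lowest adjusted value being 0.265.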

How the data were processed

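The authors deposited a read count for each gene and liver, in whole numbers and 14 columns. By the labels and the study's methods the reads were aligned with TopHat2 and counted with HTSeq. No source at hand gives versions, annotation or strand setting. Of 2 library kits in the labels it is not said which made which library, so kit could not be a batch term.

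Genes passing edgeR's filterByExpr were scaled by TMM and fitted in all 14 livers at once with edgeR's quasi-likelihood model (R 4.3.3, edgeR 4.0.16, limma 3.58.1, DESeq2 1.42.0), with Benjamini-Hochberg adjustment over 14252 genes at 0.05. An SE is the log2 fold change over the square root of its F statistic. The test was tested on simulated data. For summed marker levels the test was an exact permutation over livers, two-sided (Python 3.11.15, numpy 2.4.6, pandas 2.3.3, scipy 1.17.1). The members and lists were chosen with earlier results of these data known, so list counts and medians carry no test.

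Values in every liver are given for members past the threshold in any comparison, the 2 with the smallest p in each, C3, and the member with the highest level per kilobase in each role. Other complement genes are named when past the threshold or among the 2 smallest p in a comparison. All other genes given values, members or not, were chosen after their values were seen. Lengths come from GENCODE M21, to which 24701 of 25212 genes matched.

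As alternatives, scaling was by RLE or upper quartile, the tool was DESeq2, voom with sample weights or edgeR's exact test, the fit was robust or held only the 2 groups compared, the filter was none or a mean of at least 50 counts, calls needed an absolute log2 change of 1 or more, and each liver was left out. Leaving out GB-IL livers 1 and 4 together and the alternatives for marker sums and for the direction by role were chosen after seeing the data.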

Additional observations from a re-analysis of the deposited data

Results flagged for a closer look

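Each value here is a liver that lies far from the others of its group, by the gap to its nearest neighbour over the range of the group (Dixon's ratio). Of 174 groups examined 19 stood out so, and chance gives about 1 in 20. GB-IL liver 3 accounts for 6, RYGB liver 5 for 5, and GB-IL livers 1 and 4 for 2 each.

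In GB-IL liver 3 the high values were C1ra at 406.4 CPM, C2 at 129.7, C8b at 368.2, Serping1 at 2367 and C4a at 56.41, with macrophage markers summed to 2803 CPM. In RYGB liver 5 Itgam was at 10.97 CPM and Apcs at 458.8, with summed monocyte markers at 31.78, neutrophil markers at 134.3 and stellate markers at 501.6 CPM. GB-IL liver 1 had C7 at 12.19 CPM and pancreatic acinar markers summed to 1346 CPM. GB-IL liver 4 had Cfd high, at 11.47 CPM, and Clu low, at 1268 CPM. RYGB liver 1 had the 8 recognition genes summed to 1130 CPM. In the DIO group C1qb was high in liver 3, at 104.7 CPM, C9 in liver 1, at 602.2 CPM, and Susd4 in liver 4, at 38.25 CPM. The causes were not tested.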

How the results depend on the processing

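Over all alternatives the named complement genes gave 1272 values, of which 1098 kept direction and side of the threshold, 81 lost a call, 54 gained a call and 39 had the other direction. The causes were not tested. Depth limits Cfd, C5ar1 and C3ar1 most, the members with the lowest mean CPM over the 14 livers.

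Members called in GB-IL against DIO numbered 4, but 7 with DESeq2, 0 with only the 2 groups compared, 12 without GB-IL livers 1 and 4 together, and 0 to 14 with 1 liver left out. In GB-IL against RYGB they numbered 0, but 8 with DESeq2, 1 with voom, 7 with edgeR's exact test, 11 without GB-IL livers 1 and 4, and 0 to 13 with 1 liver left out. In RYGB against DIO they numbered 0, but 3 with voom, and 0 with any 1 liver left out. With a block by replicate number 0 members were called in GB-IL against DIO. No pairing by number was seen. Of 13 pairs with the same number 2 correlated above 0.1 (r from -0.41 to 0.40), and 1 of 14 livers correlated best with its own number. In groups this small, with single livers that stand apart, such a check cannot exclude a batch shared by livers of the same number. The members' median log2 fold change ran, with 1 liver left out, from -0.34 to 0.22 in GB-IL against DIO. It ran from -0.04 to 0.16 in RYGB against DIO and from -0.22 to 0.25 in GB-IL against RYGB. In GB-IL against DIO the median was 0.32 with voom, 0.41 without GB-IL livers 1 and 4 and -0.09 with the replicate block. In GB-IL against RYGB it was 0.38 with voom and 0.36 without GB-IL livers 1 and 4.

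Other directions, all of them differences that passed no test, were these. In RYGB against DIO, the log2 fold change of C1ra was 0.0101 with upper quartile scaling, 0.0502 with voom, 0.0055 with no filter and 0.00017 with a mean of at least 50 counts. C1qb was -0.0014 with DESeq2, -0.15 with voom and -0.0254 with the replicate block, and C1qc -0.0257 with voom. The log2 fold change of Itgax, RYGB against DIO, was 0.33 with voom and 0.00056 with the block. The log2 fold change of C7, GB-IL against RYGB, was -0.40 without GB-IL livers 1 and 4, and the log2 fold change of C4a, GB-IL against RYGB, was -0.022 with no filter. In the same comparison Cd59a was 0.0488 with voom and C1ra -0.13 with the block, and in GB-IL against DIO C1ra was -0.16 with the block.

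With 1 liver left out, log2 fold changes in RYGB against DIO ran from -0.25 to 0.22 for C1qb, -0.0858 to 0.29 for C1qc, -0.0692 to 0.0891 for C1ra and -0.23 to 0.14 for Itgax. In GB-IL against RYGB they ran from -0.53 to 0.22 for C1ra, -0.55 to 0.35 for C4a, -0.12 to 1.24 for C7 and -0.29 to 0.18 for Cd59a, and in GB-IL against DIO from -0.54 to 0.20 for C1ra.

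Differences of summed marker levels, none past an adjusted threshold, also changed sign. The difference in summed level of T cell markers, GB-IL against DIO, was -0.0157 CPM with RLE scaling, and that in summed level of dendritic cell markers, GB-IL against DIO, was 0.147 CPM with upper quartile scaling. Adipocyte sums are almost all Pck1 and Car3, which hepatocytes express too. With these 2 left out of the list the adipocyte difference was 18.57 CPM in GB-IL against DIO, 27.45 in RYGB against DIO and -8.874 in GB-IL against RYGB, and with Des left out the stellate difference in GB-IL against DIO was -12.25 CPM. With 1 liver left out, the differences in GB-IL against DIO ran from -0.174 to 5.85 CPM for B and plasma cell, -1.44 to 0.840 for T cell, -667 to 144 for adipocyte, -0.609 to 0.503 for dendritic cell, -4.94 to 27.4 for endothelial, -13.2 to 433 for pancreas acinar and -39.6 to 108 for stellate markers. In RYGB against DIO they ran from -2.21 to 1.27 CPM for B and plasma cell, -1.08 to 0.0772 for dendritic cell, -7.88 to 87.4 for endothelial and -11.3 to 156 for macrophage markers. In GB-IL against RYGB they ran from -85.9 to 827 CPM for adipocyte, -0.0745 to 0.989 for dendritic cell, -72.3 to 23.0 for endothelial, -283 to 398 for erythroid, -4.42 to 441 for pancreas acinar and -109.7 to 38.2 for stellate markers.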
